A study of Bos taurus with 40 samples.

Results

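ACTA2 (ENSBTAG00000014614) and LIMS2 (ENSBTAG00000006262) were followed in hepatic tissue and skeletal muscle of Simmental cattle, bulls and heifers, that ranked high or low for residual feed intake (RFI). They are 2 of the 8531 genes listed in any of the deposited files, and both are listed in every file. The pair was chosen by measured values: the study reported both as differing between high and low RFI in bull liver, ACTA2 higher and LIMS2 lower in low RFI. The bull liver values, and every difference that they enter, are therefore given as a description with no test, and tests were kept to bull muscle and to the heifers. The study also correlated each gene with the RFI value in bull liver, and reported a significant association for LIMS2 but none for ACTA2.

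ACTA2 encodes alpha smooth muscle actin, the actin of the contractile filaments of vascular smooth muscle cells and pericytes. In liver it is found in vessel walls and in stellate cells that have become myofibroblasts, while hepatocytes lack it; in skeletal muscle it marks the vessels rather than the fibres, whose main actin is the product of ACTA1. LIMS2 encodes PINCH2, a LIM domain adaptor that binds integrin-linked kinase and, together with a parvin, ties integrins at cell adhesions to the actin cytoskeleton.

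RFI is the feed an animal eats beyond what its weight and gain predict, so that low RFI animals are the feed efficient ones. The animals came from a single purebred Simmental herd through embryo transfer from cows at both ends of the RFI ranking, each bred to bulls of matching breeding value, and were housed for the feed intake test at about 15 months of age on ad libitum concentrate with grass silage. Percutaneous liver punches and biopsies of the longissimus muscle were taken at the end of the test from the extreme animals within each sex. This gave 40 samples in 8 groups of 5: high and low RFI bulls in liver, the same in muscle, and high and low RFI heifers in liver and in muscle. No sire served both cohorts of donor females, so that sire and parental cohort cannot be told apart. Whether the RFI groups followed these cohorts is not stated. How the animals were related within a group is not given in the sources used here, and p-values measure the spread between these samples.

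Levels are in CPM, the unit of the files, which gives a gene's reads for every 1000000 reads counted in a sample. Each value was a whole multiple of the worth of 1 read, which gave depths of 2368340 to 60929308 reads with a median of 19749118. ACTA2 rested on 112 to 5368 reads and LIMS2 on 132 to 4448 reads per sample, so that counting error alone was at most 9.45% for either gene. In 7 samples the profile of the other tissue made up 48.8% or more of an index built from 33 liver and 27 muscle genes that differed over 32-fold between the tissues, whereas the index was at most 2.26% in the other 33 samples. These 7 samples (bull muscle M12, M6, 2712 and M74, and heifer liver 2728, L58 and L16) were set apart, and results whose direction or call changes with them are given both ways. The remaining groups held 5 high and 5 low RFI bulls in liver, 4 and 3 heifers in liver, 4 and 2 bulls in muscle and 5 and 5 heifers in muscle. The cells of origin could not be checked by markers, since the files give identifiers only, and marker lists were not analysed here.

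The 2 genes had opposite tissue patterns in heifers: ACTA2 was higher in skeletal muscle than in liver and LIMS2 was higher in liver than in muscle. The values in bulls ran the same way as the mean of both RFI groups, but ACTA2 in low RFI bulls did not. In heifers, ACTA2 was 17.2 to 49.5 CPM in 7 liver samples (median 37.4) and 40.6 to 164 CPM in 10 muscle samples (median 76.3), so that the tissues overlapped only in the lower part of the muscle range. LIMS2 was 76.8 to 141 CPM in heifer liver (median 112) and 18.1 to 83.9 CPM in heifer muscle (median 28.5), and a single muscle sample, heifer 2628, reached into the liver range. In a single fit of the 33 samples over the 4416 genes listed in all comparisons (limma on log2 of scaled CPM + 1, where scaling is by the trimmed mean of M values), muscle minus liver in heifers was 1.30 for ACTA2 (SE 0.233, adjusted p = 1.12e-05) and -1.68 for LIMS2 (SE 0.182, adjusted p = 1.54e-09). Adjusted p-values are by the method of Benjamini and Hochberg over all genes tested, and a gene was called at an adjusted p under 0.1, the threshold of the study. With 75.9% of the genes called between the heifer tissues, a tissue call as such says little about either gene. In bulls the tissue difference was 0.65 for ACTA2 (SE 0.251) and -1.20 for LIMS2 (SE 0.197), with bull liver entered as the mean of both RFI groups. Mean ACTA2 was 32.3 CPM in liver and 88.5 CPM in muscle of high RFI bulls. Low RFI bulls ran the other way, with 65.1 CPM in liver (n = 5) and 46.6 CPM in muscle (n = 2). With all samples kept under their labels the tissue differences were 0.43 and -0.89 in bulls, and 1.04 and -1.25 in heifers.

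**Figure D1:**
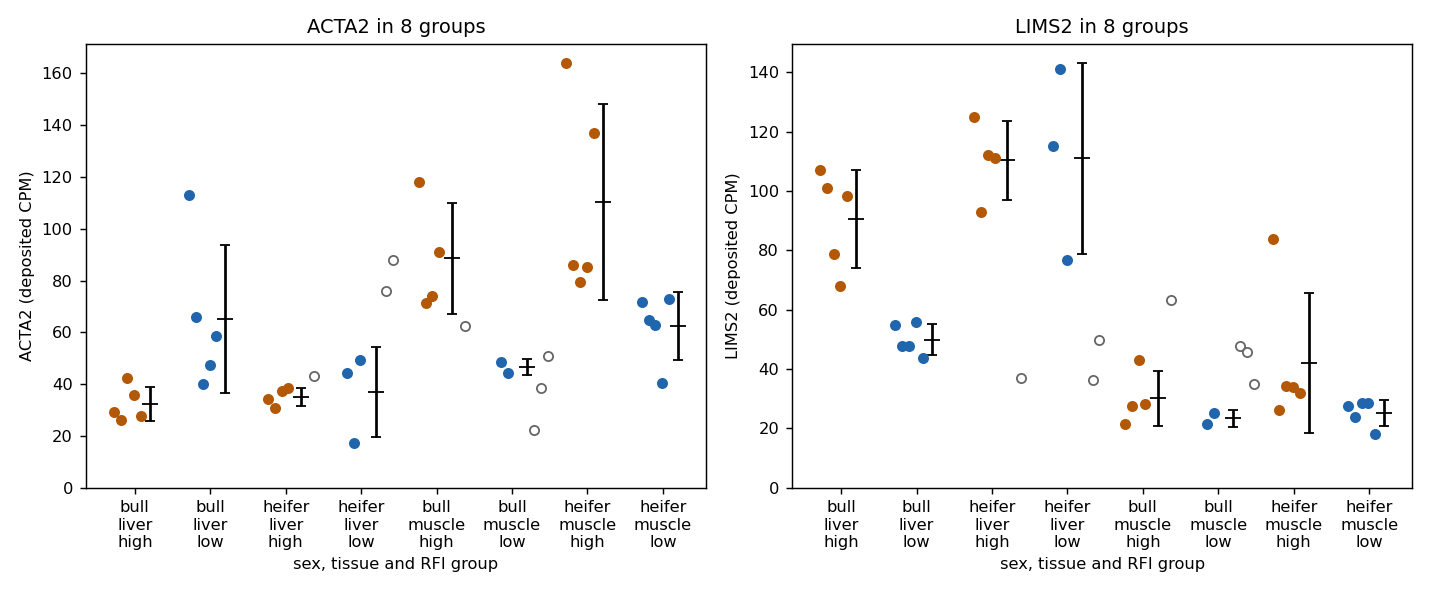
Deposited CPM of ACTA2 (left) and LIMS2 (right) in each sample of the 8 groups, high RFI in orange and low RFI in blue. Bars give the mean and SD of the filled points, and open grey points are the 7 samples with the other tissue's profile. LIMS2 in low RFI bull liver (43.6 to 55.7 CPM) stands below every other filled liver point, and ACTA2 in low RFI muscle lies low in both sexes.

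Ordered by mean level, ACTA2 ran from high RFI bull liver (32.3 ± 6.68 CPM, SD, n = 5) through high RFI heifer liver (35.2 ± 3.5, n = 4), low RFI heifer liver (37 ± 17.3, n = 3), low RFI bull muscle (46.6 ± 2.97, n = 2), low RFI heifer muscle (62.5 ± 13, n = 5), low RFI bull liver (65.1 ± 28.6, n = 5) and high RFI bull muscle (88.5 ± 21.3, n = 4) to high RFI heifer muscle (110 ± 38, n = 5). The ranges of every pair of neighbours in this order overlapped. For LIMS2 the order was low RFI bull muscle (23.4 ± 2.71 CPM, SD, n = 2), low RFI heifer muscle (25.2 ± 4.47, n = 5), high RFI bull muscle (30.1 ± 9.19, n = 4), high RFI heifer muscle (42.1 ± 23.6, n = 5), low RFI bull liver (49.9 ± 5.16, n = 5), high RFI bull liver (90.6 ± 16.5, n = 5), high RFI heifer liver (110 ± 13.1, n = 4) and low RFI heifer liver (111 ± 32.5, n = 3). Only the step from low to high RFI bull liver, the contrast that chose the gene, had ranges that did not overlap.

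In bull liver, ACTA2 was 29.4, 26.2, 42.2, 36 and 27.7 CPM in the 5 high RFI bulls and 113, 66.1, 40.2, 47.3 and 58.7 CPM in the 5 low RFI bulls. The low RFI values lay above the high RFI values except that bull 2712 (40.2 CPM) was just under the high RFI bull 2641 (42.2 CPM), and bull 2659 (113 CPM) was far above all others. The difference, low minus high, was 0.97 on the log2 scale (SE 0.252), and without bull 2659 it was 0.74. LIMS2 was 107, 101, 78.9, 68 and 98.2 CPM in high RFI bulls and 54.7, 47.6, 47.8, 55.7 and 43.6 CPM in low RFI bulls. Here every low RFI bull was below every high RFI bull, with a difference of -0.78 (SE 0.137). Groups that did not overlap, in either direction, were found for 1.01% of the 7363 genes listed in bull liver, and nothing is read from this share as the contrast chose the genes. Tag style, the single grouping of samples beyond the design that the labels show, differed between the groups, since both bulls with 2-digit tags were of high RFI; within 4-digit tags the differences were 0.92 for ACTA2 and -0.91 for LIMS2. The low RFI spread was wide for ACTA2 (coefficient of variation 43.9%) and narrow for LIMS2 (10.3%).

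In heifer liver both RFI differences were near 0; whether they differed from those in bull liver was not tested, as bull liver chose the genes. ACTA2 was 34.2, 30.7, 37.4 and 38.4 CPM in 4 high RFI heifers and 44.4, 17.2 and 49.5 CPM in 3 low RFI heifers. The low RFI values lay on both sides of the narrow high RFI range, with heifer 2632 (17.2 CPM) the lowest and heifer 2660 (49.5 CPM) the highest of the 7. The difference was 0.02 on the log2 scale (SE 0.292, 95% interval -0.64 to 0.68, adjusted p = 1, limma; exact permutation p = 1, two-sided). LIMS2 was 125, 93, 112 and 111 CPM in high RFI heifers and 115, 141 and 76.8 CPM in low RFI heifers. Again the same low RFI heifers, 2632 and 2660, were at the ends of the range, with the genes in opposite order. The LIMS2 difference was 0.05 (SE 0.226, 95% interval -0.46 to 0.56, adjusted p = 1, limma; exact permutation p = 0.857, two-sided). With 4 against 3 animals the exact test cannot go below 0.0571. Of the 7229 genes tested, 0% were called by limma or by edgeR on the recovered reads, with 181 and 187 at an unadjusted p under 0.05. The sign of both small differences changed with single animals. ACTA2 was -0.24 without heifer 2660, -0.14 without heifer L59 and -0.03 without heifer 2704. LIMS2 was -0.18 without heifer 2632 and -0.02 without heifer 2704. The largest shift of ACTA2 was to 0.45 without heifer 2632 (SE 0.142, 95% interval 0.13 to 0.78, adjusted p = 0.999, limma). For LIMS2 the largest shift was to 0.31 without heifer 2660.

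With the 3 heifer liver samples that had the muscle profile kept under their labels, ACTA2 was 43 CPM in high RFI heifer 2728 and 76 and 88.1 CPM in low RFI heifers L58 and L16. The ACTA2 difference then became 0.68 (SE 0.491, adjusted p = 0.665, limma), and 0.19 (SE 0.271, adjusted p = 0.998) with the other tissue's index as a covariate. LIMS2 was 0.04 and 0.31 in these fits. On deposited CPM, all 10 heifer liver samples gave 0.39 for ACTA2 (exact permutation p = 0.341) and -0.25 for LIMS2 (exact permutation p = 0.659, both two-sided), so that the sign for LIMS2 changed with the scaling. Within 4-digit tags alone, of the 7 samples not set apart, ACTA2 differed by -0.13 and LIMS2 by 0.01. The low RFI group held 2 of the 3 samples set apart, both with ACTA2 above every other heifer liver sample.

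In skeletal muscle ACTA2 was lower in low than in high RFI animals in both sexes, by an amount that did not pass the test over all genes. In heifer muscle ACTA2 was 164, 86.2, 79.6, 85.2 and 137 deposited CPM in high RFI and 71.7, 64.6, 62.8, 40.6 and 73 CPM in low RFI. Every low RFI heifer was thus below every high RFI heifer, as were the low RFI values of 1.87% of the 5547 genes listed for heifer muscle. On deposited CPM the difference was -0.78 (exact permutation p = 0.00794, two-sided, n = 5 and 5, the smallest p this design can give). After scaling by the trimmed mean of M values the groups overlapped: ACTA2 was 167, 80.1, 65.3, 82 and 118 scaled CPM in high RFI and 89.2, 64.2, 67.8, 37.1 and 93.6 scaled CPM in low RFI. Low RFI heifers 2632 and M70, with the lowest scaling factors of the 10 (0.803 and 0.78), moved up into the high RFI range, and high RFI heifer 2704, with the highest factor (1.22), moved down. The scaled difference was -0.52 (SE 0.31, 95% interval -1.20 to 0.16, adjusted p = 0.999, limma; exact permutation p = 0.175, two-sided). It was -0.33 without high RFI heifer 2628 and -0.31 without low RFI heifer M62. Without scaling the median difference of all heifer muscle genes was -0.24, against 0.01 with it, so that ACTA2 lay about as far below the median gene on either scale. Within tag styles it was -0.38 for 4-digit tags (3 and 3 heifers) and -0.73 for short tags (2 and 2). Separate groups in this direction were found for 0.18% of the genes after scaling, and ACTA2 was not among them.

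LIMS2 in heifer muscle was 83.9, 26.3, 34.4, 34.1 and 31.9 deposited CPM in high RFI and 27.4, 23.7, 28.4, 28.6 and 18.1 CPM in low RFI. Heifer 2628 was well above the other 9, which lay between 18.1 and 34.4 CPM with overlapping groups. The difference was -0.61 on deposited CPM (exact permutation p = 0.0317, two-sided, n = 5 and 5) and -0.36 after scaling (SE 0.309, 95% interval -1.03 to 0.32, adjusted p = 0.999, limma; exact permutation p = 0.381). Without heifer 2628 the scaled difference was -0.04. That heifer also had the highest ACTA2 of all samples. Between high and low RFI heifers 0% of the 5547 genes were called in muscle by limma or by edgeR, with 91 and 106 at an unadjusted p under 0.05.

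In bull muscle, where 4 high and 2 low RFI samples had a muscle profile, ACTA2 was 118, 71.4, 73.9 and 91 CPM in high RFI and 48.7 and 44.5 CPM in low RFI. The groups did not overlap, on deposited or on scaled CPM, but this was so in the same direction for 10.5% of the 6004 listed genes on deposited CPM and for 6.28% after scaling. The scaled difference was -0.84 (SE 0.339, 95% interval -1.61 to -0.07, adjusted p = 0.885, limma). The exact permutation p was 0.133, which is the smallest that 4 against 2 animals allow. Leaving out high RFI bull 2641, the highest, gave -0.58. The difference was -1.07 within 4-digit and -0.61 within short tags, each with 2 high RFI bulls against 1 low RFI bull. LIMS2 was 21.5, 27.5, 43.1 and 28.2 CPM in high RFI and 21.4 and 25.3 CPM in low RFI, with overlapping groups and a difference of -0.27 (SE 0.249, 95% interval -0.83 to 0.30, adjusted p = 0.885, limma; exact permutation p = 0.533). Without high RFI bull M57 it was -0.17, and without low RFI bulls 2723 or M67 it was -0.10 or -0.47. Of the 5939 genes tested, 0% were called by limma or by edgeR, with 124 and 100 at an unadjusted p under 0.05.

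Kept under their labels, the 4 bull muscle samples with the liver profile had ACTA2 at 62.3 CPM in high RFI bull M12 and at 22.3, 38.7 and 50.7 CPM in low RFI bulls M6, 2712 and M74. With them all 5 low RFI samples were still below all 5 high RFI samples on deposited CPM (difference -1.02, exact permutation p = 0.00794, two-sided). The share of all genes that separated in this way over these samples was not counted, so that nothing is read from the separation. Also, 3 of the 5 low RFI samples then carried the index of liver at 48.8 to 99.7%, so that tissue and RFI cannot be told apart in this difference. With the index as a covariate the difference was -0.80 (SE 0.262, adjusted p = 0.534, limma).

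**Figure D2:**
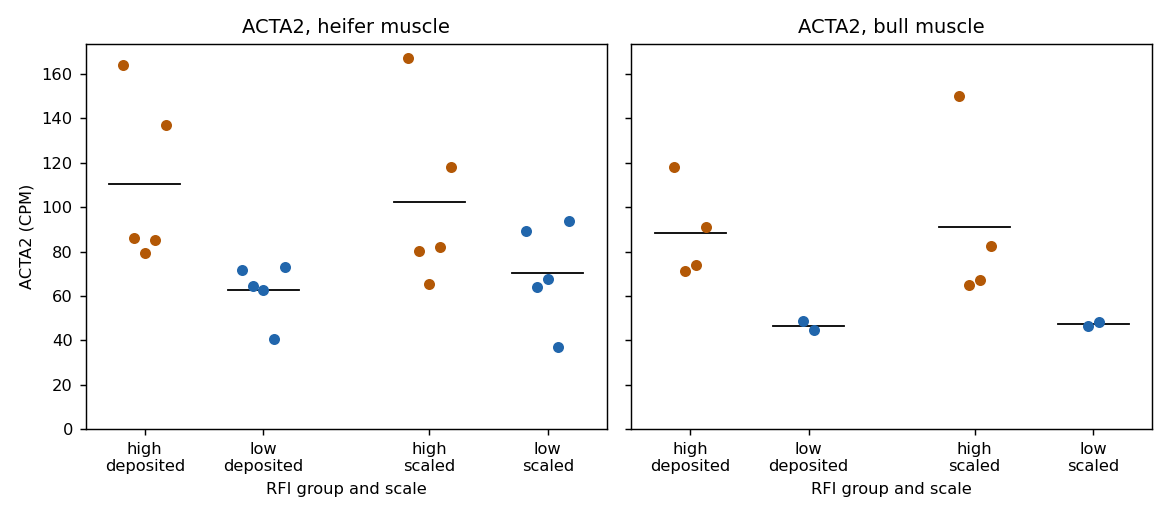
ACTA2 in skeletal muscle of heifers (left) and bulls (right) as deposited CPM and as CPM scaled by the trimmed mean of M values, high RFI in orange and low RFI in blue, with lines at the group means. In heifers the groups are separate on the deposited scale and overlap after scaling, as low RFI heifers 2632 and M70 rise to 89.2 and 93.6; in bulls they are separate on both scales.

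Over both sexes of muscle, in the fit of the 33 samples, the mean RFI difference of ACTA2 was -0.69 (SE 0.251, 95% interval -1.20 to -0.18, adjusted p = 0.63, limma). This average was taken after the values of each sex had been seen. Permuting RFI within each sex gave an exact p of 0.022 for ACTA2 (two-sided, over 3780 assignments), not adjusted for the other genes. Without scaling the mean difference was -0.83, and ACTA2 passed (adjusted p = 0.0635, limma), while the median of all genes was then -0.14 and 125 genes were called, all of them lower in low RFI. With scaling 1 of 4416 genes, 0.0226%, was called by limma and 1 by edgeR, and neither gene of the pair was. LIMS2 had a mean difference of -0.32 (SE 0.197, adjusted p = 0.808, limma; exact permutation p = 0.149), and -0.16 without heifer 2628. Low RFI below every high RFI sample in both muscles was found for 0.0187% of 5358 genes after scaling and for 0.597% on deposited CPM, with ACTA2 only among the latter. The difference between the sexes in this RFI value was 0.35 for ACTA2 (SE 0.503) and -0.06 for LIMS2 (SE 0.394, heifers minus bulls).

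The direction of the RFI difference was therefore compared between the tissues. For ACTA2 it was positive in bull liver (0.97), near 0 in heifer liver (0.02) and negative in bull and heifer muscle (-0.84 and -0.52). In the fit of the 33 samples, the RFI difference in muscle minus that in liver was -1.81 in bulls (SE 0.503), given with no test as bull liver chose the gene, and -0.52 in heifers (SE 0.465, 95% interval -1.47 to 0.43, adjusted p = 1, limma; exact permutation p = 0.306, two-sided). The heifer value moved with single samples, to -0.97 without the liver of heifer 2632, -0.26 without the liver of heifer 2660, -0.33 without the muscle of heifer 2628 and -0.32 without the muscle of heifer M62. For LIMS2 it was negative in bull liver (-0.78), near 0 in heifer liver (0.05) and negative in both muscles (-0.27 and -0.36). Muscle minus liver was 0.51 in bulls (SE 0.394, no test) and -0.39 in heifers (SE 0.365, 95% interval -1.14 to 0.36, adjusted p = 1, limma; exact permutation p = 0.403). Here the heifer value was -0.08 without the muscle of heifer 2628, -0.18 without the liver of heifer 2632 and -0.64 without the liver of heifer 2660. Both permutation tests of the heifer difference shuffled RFI in each tissue separately, although heifers 2704 and 2632 had samples in both tissues. The permutation p-values for the heifer difference between tissues are therefore not exact for this design. For the heifer difference between tissues 0% of the 4416 genes were called by limma or edgeR, with 99 and 119 at an unadjusted p under 0.05. In the heifer samples not set apart, then, neither gene had an RFI difference that differed detectably between the tissues at this sample number, and the intervals include differences as large as the heifer muscle values themselves. With all samples kept under their labels, the heifer value was -1.02 for ACTA2 (SE 0.493, 95% interval -2.02 to -0.02, adjusted p = 0.914, limma). For LIMS2 it was -0.22 (adjusted p = 0.924, limma). Low RFI heifer livers L58 and L16 then carried the muscle index at 98.3 and 74.4%, so that tissue and RFI cannot be told apart in these values.

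**Figure D3:**
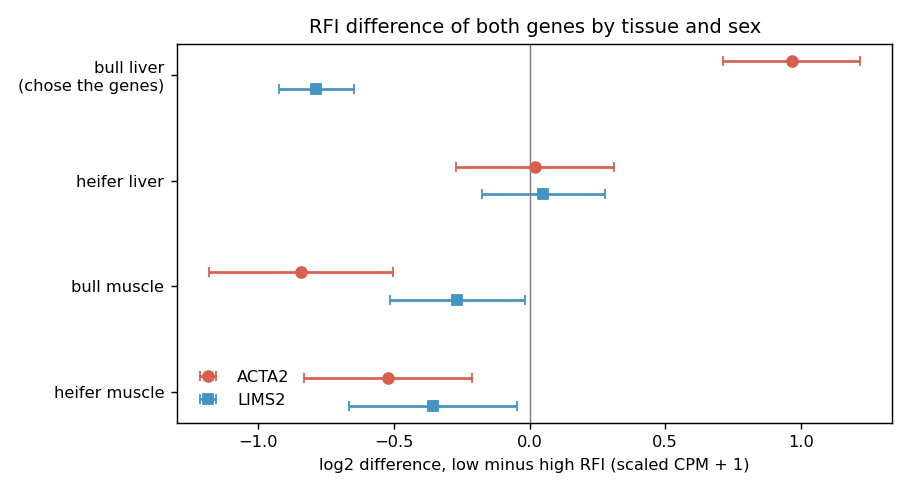
Low minus high RFI on the log2 scale for ACTA2 (circles) and LIMS2 (squares) in the 4 comparisons, with bars of 1 SE. ACTA2 is at 0.97 in bull liver, which chose the genes, near 0 in heifer liver and below 0 in both muscles; LIMS2 is below 0 in bull liver and in both muscles.

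Between the sexes, LIMS2 in high RFI liver was 93 to 125 CPM in heifers and 68 to 107 CPM in bulls, with overlapping ranges. In low RFI liver it was 76.8 to 141 CPM in heifers and 43.6 to 55.7 CPM in bulls, with no overlap, and these bull values are those for which the gene was chosen. The share of all genes without overlap between these groups was not counted, and nothing is read from it. Heifer minus bull over both RFI groups was 0.74 on the log2 scale (SE 0.182), given with no test, and 0.33 with all samples under their labels. ACTA2 in liver differed by -0.30 (SE 0.233), and by -0.10 without heifer 2632. In muscle, 0.226% of the genes were called between the sexes and neither gene was among them, with 0.35 for ACTA2 (SE 0.251, adjusted p = 0.623) and 0.26 for LIMS2 (SE 0.197, adjusted p = 0.635, limma). LIMS2 was 0.10 without heifer 2628 and 0.17 without bull 2723.

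Within a sample, ACTA2 divided by LIMS2 separated the tissues outside low RFI bulls. The ratio of deposited CPM was over 1 in 16 of 16 muscle samples (1.42 to 5.48) and under 1 in 14 of 17 liver samples, and the liver samples over 1 were low RFI bulls 2659, 2669 and 2723 (2.06, 1.39 and 1.35), of the group that chose the genes. It was under 1 in all 12 liver samples of high RFI bulls and of heifers, at 0.122 to 0.645. Library scaling cancels in this ratio. Low minus high RFI of the log2 ratio was 1.78 in bull liver (no test), -0.03 in heifer liver (exact permutation p = 0.914), -0.16 in heifer muscle (exact permutation p = 0.619) and -0.58 in bull muscle (exact permutation p = 0.4, all two-sided). Outside bull liver the difference in the ratio was thus within the spread between animals. The other tissue's index in bull liver was 0.266 to 0.394% in high RFI (median 0.286%) and 0.244 to 0.501% in low RFI (median 0.363%). Whether the index bears on the ratio was not tested.

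**Figure D4:**
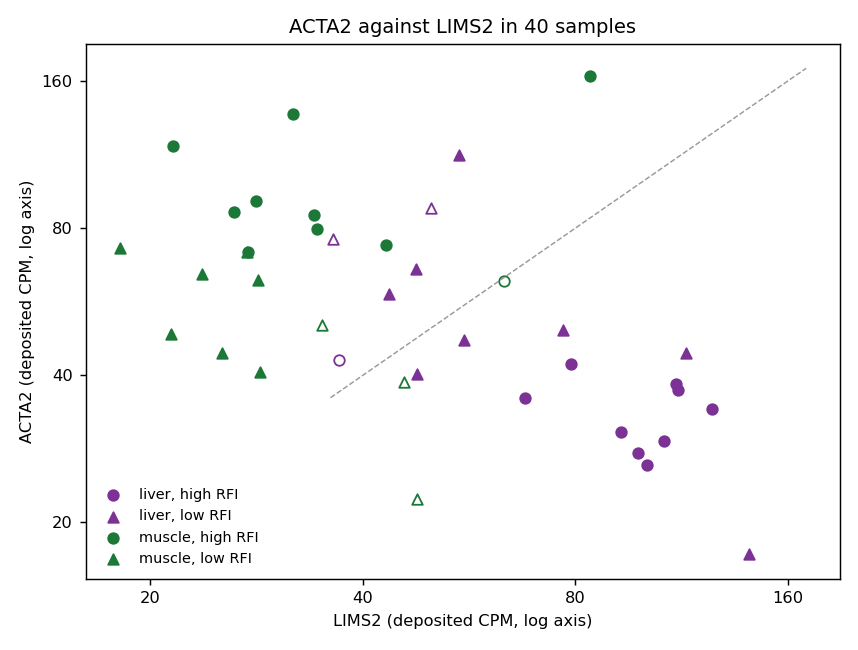
ACTA2 against LIMS2 in deposited CPM in all 40 samples, both on log axes, with liver in purple, muscle in green, high RFI as circles, low RFI as triangles and the 7 samples set apart as open symbols. The dashed line marks equal CPM; all 16 filled muscle points lie above it and 14 of 17 filled liver points below it.

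Across animals of a comparison the genes had no firm relation. In heifer liver (n = 7) the log2 values had Pearson's r = -0.759 (exact permutation p = 0.0583, adjusted p = 0.114 over 3 tests) and Spearman's rho = -0.5 (exact permutation p = 0.267, adjusted p = 0.448), and without the 2 animals farthest from the median of ACTA2 r was 0.494. In heifer muscle (n = 10) r was 0.641 (permutation p = 0.0761, adjusted p = 0.114) and rho 0.37 (permutation p = 0.298, adjusted p = 0.448), and r was 0.037 without the 2 farthest animals. In bull muscle (n = 6) r was 0.209 (exact permutation p = 0.628, adjusted p = 0.628) and rho 0.371 (exact permutation p = 0.497, adjusted p = 0.497), and r was -0.03 without 2. The heifer values rest on those animals, which include heifer 2632 in liver and heifer 2628 in muscle. In bull liver r was -0.665 over the 10 bulls, with no test, since the opposite RFI differences that chose the genes enter it. Taken around the RFI group means, r was 0.00125 in bull liver, -0.764 in heifer liver, 0.575 in heifer muscle and -0.2 in bull muscle.

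The 7 samples set apart give the values of both genes in single samples beside the index. The bull muscle samples with 99.7% of the liver index, M12, M6 and 2712, had LIMS2 at 63.4, 47.8 and 45.8 CPM, above the 6 other bull muscle samples (21.4 to 43.1), and a ratio of ACTA2 to LIMS2 of 0.983, 0.466 and 0.844. Heifer liver sample L58, with 98.3% of the muscle index, had LIMS2 at 36.3 CPM, below the 7 other heifer liver samples, and a ratio of 2.09. The samples with intermediate indices, M74 (48.8%), 2728 (48.9%) and L16 (74.4%), had ratios of 1.45, 1.16 and 1.77.

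Of the 5 animal tags present in both tissues, 4 had both samples outside those set apart. From liver to muscle, ACTA2 went from 42.2 to 118 CPM in high RFI bull 2641, from 30.7 to 79.6 in high RFI heifer 2704 and from 17.2 to 71.7 in low RFI heifer 2632. In low RFI bull 2723 it went from 58.7 to 48.7 CPM, so that this animal had more ACTA2 in liver than in muscle. LIMS2 was lower in muscle in all 4, from 78.9 to 21.5, from 93 to 34.4, from 141 to 27.4 and from 43.6 to 21.4 CPM in the same order.

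Genes with the most similar pattern were sought by Pearson's r over log2 values after the mean of each sex and RFI group was removed. As the files give identifiers only, they are not named. In muscle (16 samples, 5358 genes) the closest to ACTA2 was ENSBTAG00000001489 (r = 0.915), and the most opposite was ENSBTAG00000004933 (r = -0.903). The closest to LIMS2 was ENSBTAG00000016532 (r = 0.938) and the most opposite ENSBTAG00000023259 (r = -0.951). In liver (17 samples, 7045 genes) the highest r was 0.893 for ACTA2 and 0.892 for LIMS2. Between the genes of the pair r was -0.361 in liver and 0.413 in muscle, where LIMS2 stood at place 1396 among the genes ordered by likeness to ACTA2. These values share libraries and scaling and are a description.

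The level of a gene in a whole biopsy does not tell fewer cells of a type from less RNA per cell. The alpha smooth muscle actin transcript has a coding sequence close to those of ACTA1, ACTC1 and ACTG2, and a read that fits several copies may be assigned to another or lost, so that the ACTA2 values are uncertain to that extent. In the reference gene table (assembly ARS-UCD2.0, not the build of the files) GPR17 lies within the bounds of LIMS2, with MYO7B and SFT2D3 beside it, and STAMBPL1 and FAS are the named neighbours of ACTA2. The sources used here do not say that counting used strand, so that reads of overlapping genes may not be told apart.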

How the data were processed

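RNA of liver and skeletal muscle biopsies was sequenced as single-end reads. Per the submitters' processing notes and the study's methods, the authors aligned reads to UMD3.1 with STAR 2.5.1, assigned them to protein-coding genes with HTSeq 0.6.1p2 and deposited CPM for a part of the genes, without further scaling. The bull muscle values were treated as a signal in CPM: the last 1359 entries of each of the 10 deposited bull muscle files equal the liver values of bull 2723 and were dropped, as was 1 stray letter. Values were whole multiples of 1 read (100% within 0.01 read).

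CPM were scaled by the trimmed mean of M values and log2(CPM + 1) was fitted with limma 3.58.1 (R 4.3.3, trended variance). Genes needed over 1 CPM in at least 5 samples, or in all samples of a comparison under 10. A fold change on this scale understates changes of low genes. edgeR 4.0.16 on recovered reads was an alternative; other scalings, pseudocounts of 0.1 and 5 CPM, filters, the index as a covariate and leaving out samples were others. Exact permutation tests (scipy 1.17.1) were two-sided, and correlations over 10 animals used 100000 permutations. Samples were grouped by their labels. Tissue and sex differences that include bull liver were set to be tested, and are given as values only. No pair among the 40 samples agreed within sampling noise, and the fits were tested on simulated data. Of genes changed there by 1 on the log2 scale, 19% were called in heifer muscle, 14.6% in bull muscle and 70.5% in heifer liver. False calls made up 7.32, 17.1 and 10.2% of the calls. At a change of 2 the shares called were 94, 96 and 99.5%. A lack of calls in muscle therefore does not show a lack of changes near 1. The simulated libraries differed in depth but not in composition, whereas the scaling factors in heifer muscle ran from 0.78 to 1.22. The shares called hold for that simpler setting. The genes, lists and tests were chosen with earlier results of these data known; the genes named are the pair, plus the closest and most opposite by r. Lists of actins, PINCH, ILK and parvin genes, cell type markers and others were not analysed here, as 0 identifiers matched the reference table by Ensembl ID; symbols of the pair are the study's.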

Additional observations from a re-analysis of the deposited data

Results flagged for a closer look

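LIMS2 in muscle of high RFI heifer 2628 was 83.9 CPM, far from the other 4 heifers of its group, the next of which was at 34.4 CPM. The gap was 0.859 of the range of the group, against Dixon's 95% critical value of 0.71 for 5 samples. Among 12 groups of 4 or 5 samples examined (both genes), this was the single one past the critical value. Chance alone flags about 1 in 20 groups, or about 0.6 of 12, so that 1 such group is near what chance gives. The value rests on 1230 reads, and the index of the other tissue was 1.1% in this sample. The same sample had the highest ACTA2 of all, 164 CPM.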

How the results depend on the processing

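Results were recomputed under other scalings, pseudocounts, filters and tools, with and without the samples set apart, and without each sample. Tag style as a covariate, the mean over both muscles, deposited CPM in exact tests, and leaving out samples for tissue and sex differences were added after seeing the data. The labels share no replicate numbers, but 4 animal tags are in both tissues among the samples not set apart. The study selected 5 high and 5 low RFI animals of each sex, so that further samples may share an animal under different tags. Such pairs could not be identified, and the fits took them as separate animals. With the tag as a replicate block in the fit of the 33 samples (estimated correlation 0.284, also added afterwards), muscle minus liver in heifers was 1.34 for ACTA2 and -1.69 for LIMS2, RFI by tissue in heifers was -0.37 for ACTA2, and the block changed no call of the pair.

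Without scaling (library size only), heifer liver differences turned to -0.055 for ACTA2 and -0.0263 for LIMS2, ACTA2 over both muscles passed (-0.83), and 125 genes were called there. With tag style as a covariate ACTA2 in heifer liver was -0.00273. With all samples under their labels LIMS2 turned in bull muscle (0.0244) and between the sexes in muscle (-0.0345), LIMS2 was -0.885 between bull tissues and 0.332 between the sexes in liver (both untested), ACTA2 between the sexes in muscle passed at 0.589, and 1691 genes were called there. Over both muscles 0 genes were called with median-of-ratios scaling, a pseudocount of 5 CPM or all samples. Correlations without 2 animals were 0.494 in heifer liver and -0.0301 in bull muscle.

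Without 1 sample, heifer liver ACTA2 was -0.24 to 0.45 and LIMS2 -0.18 to 0.31, with 0 to 2 genes called (2 without heifer L59). Between the sexes in muscle 4 to 16 genes were called; the difference of LIMS2 between the sexes' RFI values in muscle was -0.24 to 0.25; and 0 to 2 genes were called over both muscles. The cause of these changes was not tested. Under the alternatives that left out no single sample, the other 281 values kept their direction and their side of the threshold, or, as counts, stayed within 1.5 times and, as untested values, within 1 SD.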
